A study of Homo sapiens with 8 samples.

Results

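The transcripts described here were isoforms that stood higher in polysomal than in total RNA of human melanoma cells in every library, whichever siRNA the cells had received. They were chosen by their measured values: the lowest of the 4 polysomal values had to be 5 FPKM or more and at least 2 times the highest of the 4 total RNA values, and all total RNA values had to be above 0. Of 65514 isoforms with valid values, 77 met this rule (0.118%). The condition on total RNA above 0 removed none, since the same 77 isoforms met the rule without it. Because the rule used the contrast of polysomal with total RNA, that contrast is given for these isoforms as a description only, and tests were run on what the rule did not use.

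The established melanoma line HT-144 was used, and the cells had received siRNA against DDX3X or control siRNA. Total RNA and polysomal RNA, the latter taken from a sucrose gradient, were sequenced for both, which gave 4 groups of 2 libraries: polysomal with control siRNA, total with control siRNA, polysomal with DDX3X siRNA and total with DDX3X siRNA. The labels do not say whether the 2 libraries of a group came from separate cultures, so the p-values rest on differences between libraries that may be technical repeats. The values are read here as FPKM (fragments per length of transcript and per number of mapped fragments), so levels of different isoforms are compared per length.

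An mRNA that is being read by several ribosomes at once forms a polysome, and polysomes sink further in a sucrose gradient than free mRNA or single ribosomes. RNA recovered from the heavy fractions therefore serves as a measure of which mRNAs are engaged in translation, and its ratio to total RNA as a measure of how much of an mRNA is engaged relative to other mRNAs. DDX3X is a DEAD-box RNA helicase, an enzyme that remodels RNA structure and is known for its part in translation initiation. The deposited table holds identifiers without gene names, and the reference tables named none of these 77, so the isoforms are described by their values and ranks, and neither their functions nor the level of DDX3X itself was analysed here. Identifiers are printed for 4 of them.

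The deposited values of a library summed to between 654252 and 5486860 FPKM, mostly because of a few extreme entries: 1 isoform alone took 4.88% to 65.6% of a library's sum, and 25 isoforms exceeded 10000 FPKM in some library, without which the sums were 311646 to 416692 FPKM. Factors from the median ratio over isoforms, which such entries hardly move, lay between 0.949 and 1.18. FPKM carry no read numbers, so depth and counting error were unknown. Without those 25 isoforms, the 77 made up 3.52% and 3.68% of the remaining sum in the polysomal libraries of the control siRNA and 3.80% and 3.36% in those of the DDX3X siRNA. In total RNA they made up 1.59% in both control siRNA libraries and 1.58% and 1.48% in the DDX3X siRNA libraries.

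How far the fractions were apart was read from the margin, the lowest polysomal value divided by the highest total RNA value of an isoform. Most isoforms lay close to the rule's limit: the median margin was 2.29 (quartiles 2.12 and 2.64), 51 of 77 had a margin under 2.5, 13 had one of at least 3 and 7 one of at least 4. Just inside the limit were margins of 2.0002, 2.001 and 2.007, and just outside it were isoforms at 1.99, 1.98 and 1.98, so the list ends in the middle of a continuous range. At the level limit, the lowest polysomal values inside were 5.23, 5.44 and 5.54 FPKM and the nearest isoforms outside had 4.80, 3.93 and 3.88 FPKM. Of the 5601 isoforms with at least 5 FPKM in every polysomal library and values above 0 in total RNA, the 77 were 1.37%. The median isoform of those 5601 was itself 1.251 times as high in polysomal as in total RNA with control siRNA and 1.22 times with DDX3X siRNA. Their minimum of 5 FPKM was set on polysomal values only, which favours isoforms that are higher there. Over all 15531 isoforms with 1 FPKM in 2 or more libraries, the median difference in log2(FPKM + 1) was 0.12 with control and 0.07 with DDX3X siRNA. After scaling by median ratios between libraries 42 of the 77 still met the rule and no other isoform did, so 35 members depended on the scale of the deposited values.

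The isoforms ranged from weakly to very strongly expressed. Mean polysomal levels ran from 5.55 to 2544 FPKM with a median of 26.7, and mean total RNA levels from 0.00520 to 1046 FPKM with a median of 9.66. The isoforms fell into 30 with a polysomal mean under 20 FPKM, 24 between 20 and 100, 14 between 100 and 500 and 9 above 500. The most abundant of them had polysomal values of 2562, 2295, 2785 and 2533 FPKM against 926, 1028, 1105 and 1123 FPKM in total RNA, each time with the control siRNA libraries first. The next, at rank 2 by level, had 2736, 3229, 2082 and 2062 FPKM in polysomal and 848, 973, 772 and 671 FPKM in total RNA. Their margins were 2.04 and 2.12, so in both the fractions were only a little over the required 2 times apart at their closest values.

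**Figure D1:**
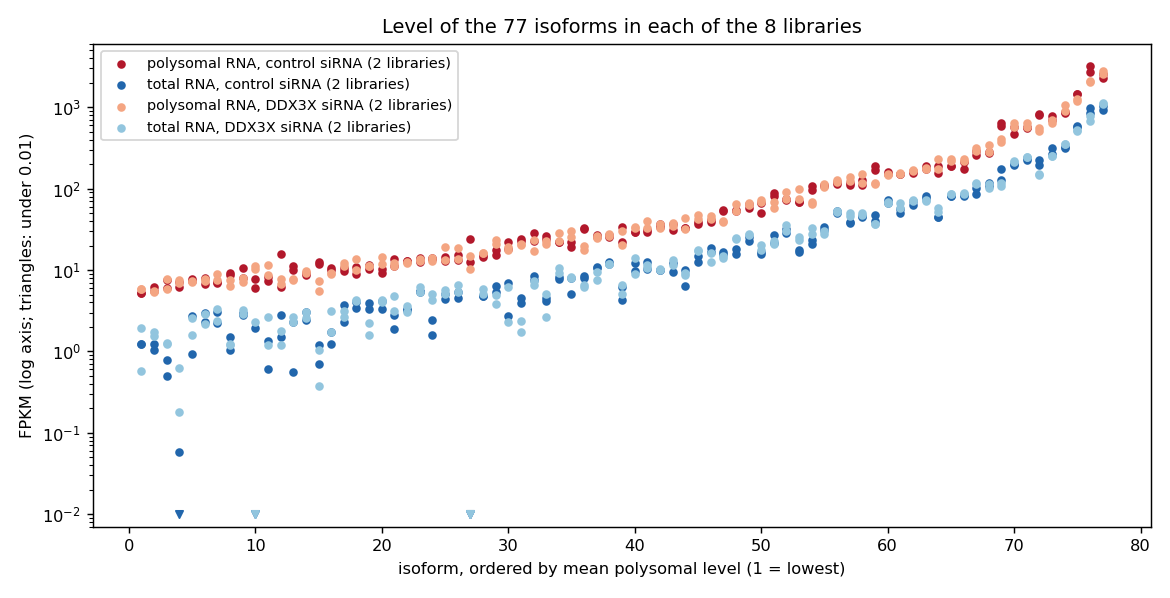
Level of each of the 77 isoforms in FPKM on a log axis, ordered by mean polysomal level, with 1 point for each of the 8 libraries; values under 0.01 FPKM are drawn as triangles at 0.01. Polysomal points lie above total RNA points for each isoform, as the rule requires, and 3 isoforms have a total RNA value near 0.

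The widest gaps belonged to weakly expressed isoforms. The ratio of mean polysomal to mean total RNA had a median of 3.90 among the 30 isoforms under 20 FPKM, 2.76 among the 47 at 20 FPKM or more and 2.67 among the 23 at 100 FPKM or more, where the highest was 3.81. Across the 77 isoforms, Spearman's rho between mean polysomal level and this ratio was -0.58; this is a description across isoforms that share the same libraries, and the ratio contains the level. Of the 13 isoforms with a margin of at least 3, 7 were under 20 FPKM and 1 was above 100 FPKM. That 1 isoform had 111, 108, 106 and 113 FPKM in polysomal RNA and 31.1, 33.7, 28.0 and 30.3 FPKM in total RNA. Its control and DDX3X siRNA values overlapped in polysomal RNA, and in total RNA both DDX3X siRNA values lay below both control values.

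**Figure D2:**
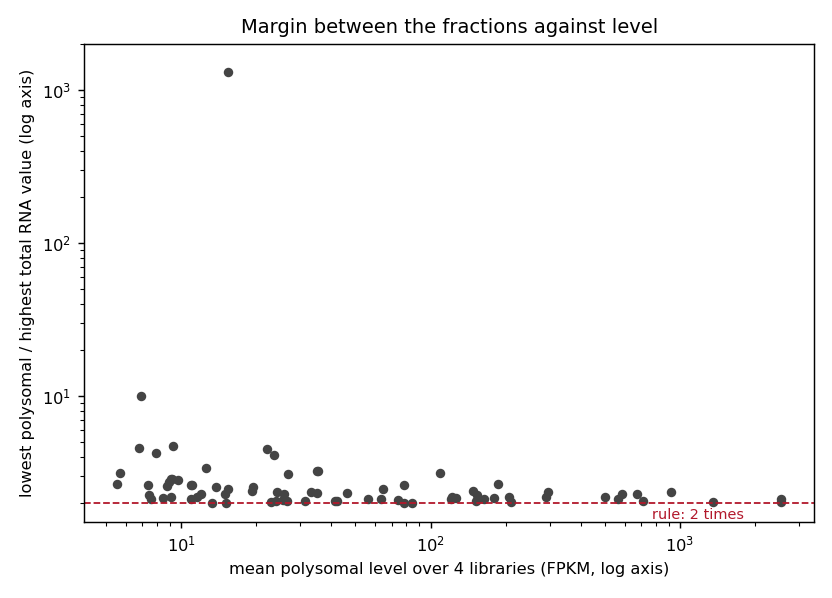
Margin (lowest polysomal divided by highest total RNA value) of each of the 77 isoforms against its mean polysomal level in FPKM, both on log axes, with the rule's limit of 2 as a dashed line. All margins above 4 belong to mean levels under 100 FPKM, and 1 isoform stands far above all others at 1303.

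The largest margin went with total RNA values close to 0. Isoform uc003znw.1 had 12.6 and 24.0 FPKM in polysomal RNA with control siRNA and 10.2 and 14.7 FPKM with DDX3X siRNA. In total RNA it was listed at 0.00166 and 0.00780 FPKM with control and at 0.00703 and 0.00431 FPKM with DDX3X siRNA, a margin of 1303. It was the only member with all total RNA values under 0.01 FPKM. Isoform uc010rar.1 had 6.25, 7.05, 7.55 and 6.89 FPKM in polysomal RNA, with control siRNA first. The second largest margin, 9.94, was that of this isoform. Its total RNA values were 2.56e-07 and 0.0581 FPKM with control and 0.182 and 0.628 FPKM with DDX3X siRNA, so that they differed far more between replicates than the polysomal values did. Another isoform, at rank 24 by margin, was listed in total RNA at 1.92 and 0.000291 FPKM (control siRNA) and at 0.000582 and 2.32 FPKM (DDX3X siRNA). For that isoform each total RNA group held 1 library near 0 and 1 near 2 FPKM, while its polysomal values were 6.03, 7.81, 10.3 and 11.1 FPKM. FPKM of isoforms that overlap are split between them by a model, so a value near 0 may be a failed estimate rather than a level.

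Outside these 3 no total RNA value was under 0.1 FPKM, but some were low or far apart between replicates. Total RNA replicates of a group lay over 2 times apart in 9 of the 77, these 3 included. The member at rank 15 by margin, for example, had 0.553 and 2.33 FPKM in total RNA with control siRNA. In 68 of 77 isoforms every total RNA value was 1 FPKM or more, and in 45 every one was 5 FPKM or more. The member at rank 5 by margin had 24.0, 22.9, 20.8 and 20.6 FPKM in polysomal RNA against 4.53, 3.91, 2.35 and 1.74 FPKM in total RNA. The member at rank 10 had 36.8, 33.8, 33.1 and 36.4 FPKM against 10.01, 10.07, 10.01 and 10.2 FPKM. At rank 10 the 4 total RNA values were nearly the same whichever siRNA was used, and at rank 5 both DDX3X siRNA values lay below both control values.

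Replicates of the 77 isoforms were closer in polysomal than in total RNA. The median fold between the 2 libraries of a group was 1.09 in each polysomal group, against 1.15 in total RNA with control and 1.11 with DDX3X siRNA. Replicates over 2 times apart were found for 1 isoform in the control and 0 in the DDX3X siRNA group of polysomal RNA. In total RNA they were found for 7 isoforms in the control and 6 in the DDX3X siRNA group. The 1 isoform apart in polysomal RNA, at rank 44 by margin, had 6.17 and 15.6 FPKM with control siRNA and 7.80 and 6.71 FPKM with DDX3X siRNA. Since the rule takes the lowest and highest values over replicates, it also selects for replicates that lie close together. It sets a minimum of 5 FPKM for polysomal values, while total RNA values must be lower and only above 0. The fractions are thus compared at unlike levels, and nothing is read from their difference in replicate spread.

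Some of the isoforms stood next to each other in the deposited table. A further member lay within 10 rows for 16 of the 77, in 7 small runs of 2 or 3. None shared identical values. The files give no location for them, so whether members of a run belong to the same gene, and share reads, was not analysed here. In the run of 3 at ranks 20, 62 and 25 by margin, polysomal levels were 68.9, 68.0, 75.3 and 100.4 FPKM for the first, 81.1, 88.4, 57.2 and 68.2 FPKM for the second and 14.03, 13.8, 13.0 and 14.2 FPKM for the third. With DDX3X siRNA both replicates of the first were thus higher and both of the second lower, while those of the third overlapped the controls.

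Whether an excess on polysomes seen with one siRNA was also present with the other could be tested with libraries that the choice did not use. The rule was applied to the 4 control siRNA libraries alone, which chose 300 isoforms, and these were read in the 4 DDX3X siRNA libraries. There 137 of them (45.7%) met the rule again, against 4.11% of the 5980 isoforms with at least 5 FPKM in both polysomal and values above 0 in both total RNA libraries. In 274 of 300 (91.3%) both polysomal values lay above both total RNA values, beside 35.8% of all tested isoforms. With limma fitted on the DDX3X siRNA libraries alone, 201 of 300 (67.0%) were higher and 0 were lower in polysomal RNA at an adjusted p under 0.05 (Benjamini-Hochberg over 13943 isoforms), against 8.71% of all tested isoforms called higher. The 35.8% and 8.71% come from isoforms that needed only 1 FPKM in 2 of the 4 libraries, so they are not matched in level to the 300. The median ratio of polysomal to total RNA was 2.69 in the choosing libraries and 2.29 in the others.

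Read the other way, 246 isoforms were chosen with DDX3X siRNA and 137 of them (55.7%) met the rule with control siRNA, against 4.89% of 6134 such isoforms. Both polysomal values lay above both total RNA values in 231 of 246 (93.9%), beside 41.7% of all tested isoforms. With limma on the control siRNA libraries alone, 196 of the 244 tested (80.3%) were higher and 0 were lower at an adjusted p under 0.05, against 14.2% of all tested isoforms called higher. The 41.7% and 14.2% are likewise not matched in level to the 246. The median ratio of the 246 was 2.56 in the choosing libraries and 2.35 in the others. In both directions the median ratio was smaller in the libraries that had not chosen the isoforms. The 137 isoforms include the 77; the other 60 met the rule within each siRNA but not when the lowest polysomal value of one siRNA was set against the highest total RNA value of the other.

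**Figure D3:**
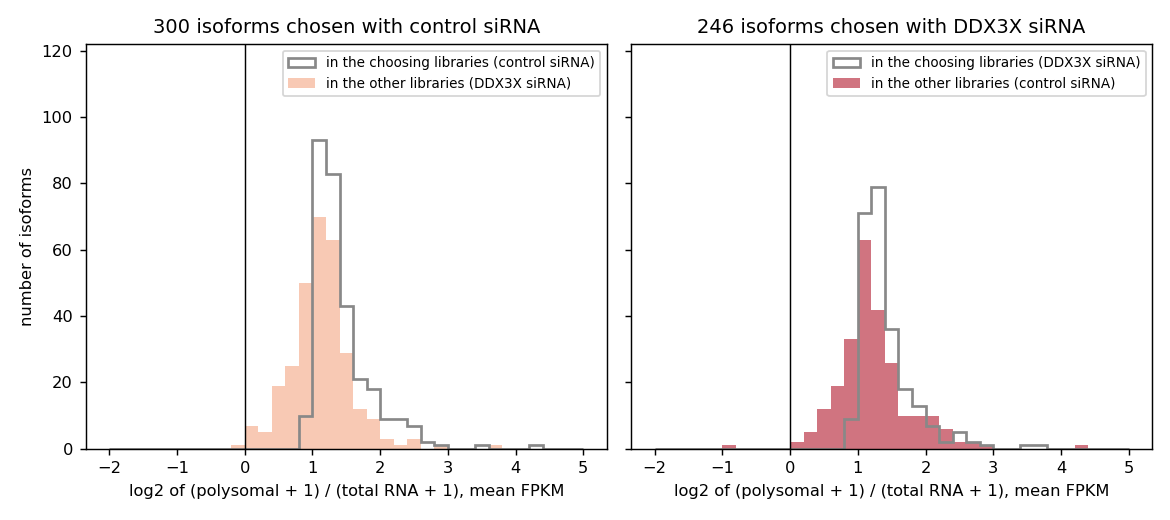
Number of isoforms by log2 ratio of mean polysomal to mean total RNA FPKM (1 added to each), for the 300 isoforms chosen with control siRNA (left) and the 246 chosen with DDX3X siRNA (right); grey outlines show the choosing libraries and filled bars the libraries of the other siRNA. The filled bars lie lower than the outlines but almost wholly above 0, with 1 isoform in each panel at a mean ratio under 1. The highest log2 ratios, 5.33 to 5.45, lie beyond the plotted range and are not drawn.

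Isoforms that did not meet the rule a second time mostly kept a smaller polysomal excess. Of the 163 chosen with control siRNA only, 75 had a lowest polysomal value 1.5 to 2 times the highest total RNA value with DDX3X siRNA, 52 one of 1 to 1.5 times, and in 26 the fractions overlapped. Of the 109 chosen with DDX3X siRNA only, the numbers with control siRNA were 65, 24 and 15. The polysomal value fell under 5 FPKM in 38 and 24 of these isoforms.

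The polysomal excess of the 77 was then set side by side for both siRNAs. The ratio of group means had a median of 3.18 with control siRNA (quartiles 2.63 and 4.12) and of 2.98 with DDX3X siRNA (quartiles 2.63 and 3.71), and it was higher with DDX3X siRNA for 33 isoforms and lower for 44. For 68 isoforms all total RNA values were 1 FPKM or more. Over these, the log2 ratios with control and DDX3X siRNA correlated with r = 0.608. Over all 77, Spearman's rho was 0.731. The ratios share no library, but the rule used both and set values of one siRNA against those of the other. Nothing is therefore read from these correlations. On the log2(FPKM + 1) scale used for testing, the median difference between the fractions was 1.54 with control and 1.46 with DDX3X siRNA, beside 0.12 and 0.07 over all 15531 tested isoforms. Median-of-ratios scaling moved the median of all isoforms to -0.01 and 0.00 and that of the 77 to 1.36 and 1.38. In the fit over all 8 libraries 76 and 77 of the 77 passed as higher in polysomal RNA, beside 12.7% and 12.4% of all tested isoforms; the rule used these contrasts, so nothing is read from those counts.

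The rule did not set DDX3X against control siRNA, although it takes the lowest and highest values over both and so limits how far a member can differ between them. This contrast was tested with limma over all 15531 isoforms that reached 1 FPKM in 2 or more libraries. All 77 pass that filter through their polysomal values. The shares of all tested isoforms set beside the 77, here and for total RNA and the difference, are therefore not matched to them in level. In polysomal RNA none of the 77 isoforms passed an adjusted p of 0.05 for DDX3X against control siRNA, where 0.167% of all tested isoforms were higher and 0.122% lower. At an unadjusted p under 0.05, 4 of the 77 were higher and 10 lower (5.19% and 13.0%), beside 7.48% and 8.02% of all tested isoforms. The median log2 change of the 77 was 0.05, with a range of -0.83 to 0.57, beside a median of -0.02 over all tested isoforms. Both DDX3X siRNA values lay above both control values in 26 isoforms and below them in 19, beside 22.1% and 23.5% of all tested isoforms. These are 33.8% and 24.7% of the 77.

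The 95% intervals show how large a change the data leave room for. For 68 of 77 isoforms the interval of the polysomal change lay wholly within 1 on the log2 scale, that is within a 2-fold change either way of FPKM + 1, and for 34 it lay within 0.5. A change of at least 0.5 downwards was estimated for 7 isoforms and one upwards for 1. The missing calls do not show that these isoforms were unaffected.

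The smallest adjusted p in polysomal RNA belonged to isoform uc001qru.1, at rank 61 by margin, which was singled out after its values had been seen. It had 32.3 and 32.6 FPKM with control and 17.9 and 19.8 FPKM with DDX3X siRNA in polysomal RNA, and 8.54 and 7.89 against 6.13 and 6.46 FPKM in total RNA. Both DDX3X siRNA values were below both control values in each fraction. Its log2 change was -0.76 ± 0.11 (SE) in polysomal RNA with a limma adjusted p = 0.0568 and -0.34 ± 0.11 in total RNA with a limma adjusted p = 0.167. Over the 20 alternative settings its polysomal adjusted p ran from 0.0267 to 0.260, and it passed in 9 of them, among them the fit without DDX3X polysomal replicate 2 (limma adjusted p = 0.0411).

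Isoform uc003njr.3, at rank 6 by level and also singled out after its values had been seen, was among the most abundant. Its polysomal values were 822 and 808 FPKM with control and 512 and 557 FPKM with DDX3X siRNA, and its total RNA values were 195 and 225 against 151 and 147 FPKM. Again neither fraction's groups overlapped. The log2 changes were -0.61 ± 0.09 in polysomal RNA (SE, limma adjusted p = 0.0668) and -0.49 ± 0.09 in total RNA (limma adjusted p = 0.0709), and its ratio of polysomal to total RNA went from 3.88 to 3.58. Over 20 alternative settings the adjusted p ran from 0.0356 to 0.276 in polysomal RNA and from 0.0336 to 0.311 in total RNA, and it passed in 4 settings each. The only other member within 10 rows of it, at rank 9 by level, had 586 and 640 FPKM with control and 403 and 378 FPKM with DDX3X siRNA in polysomal RNA (limma adjusted p = 0.114). Its total RNA values were 128 and 173 against 118 and 108 FPKM, so both neighbours lay lower with DDX3X siRNA in both fractions.

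In total RNA none of the 77 passed either, where 0.56% of all tested isoforms were higher and 0.212% lower with DDX3X siRNA (limma adjusted p under 0.05). At an unadjusted p under 0.05, 9 were higher and 7 lower (11.7% and 9.09%), beside 11.2% and 7.14% of all tested isoforms. The median log2 change was 0.07, with a range of -0.78 to 0.93, beside 0.04 over all tested isoforms. Both DDX3X siRNA values lay above both controls in 28 of the 77 and below them in 16 (36.4% and 20.8%), beside 29.9% and 22.9% of all tested isoforms. The interval lay within 1 on the log2 scale of FPKM + 1 for 68 of 77 isoforms. For total RNA values under 1 FPKM this does not limit the fold change of FPKM itself. For uc010rar.1 the mean was 0.0291 FPKM with control and 0.405 FPKM with DDX3X siRNA, yet its interval was -0.05 to 0.91. The member at rank 5 by margin, whose values are given above, had the smallest adjusted p (log2 change -0.78 ± 0.14 SE, limma adjusted p = 0.0613), with a polysomal change of -0.18. The member at rank 25 by margin had 1.59 and 2.45 FPKM in total RNA with control and 5.09 and 4.34 FPKM with DDX3X siRNA, a log2 change of 0.93 ± 0.17 (SE, limma adjusted p = 0.0627).

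The fits were repeated without single libraries. In polysomal RNA 1 of the 77 (1.30%) passed without DDX3X polysomal replicate 2, where 1.63% of all tested isoforms passed, and 0 without any other library, where 0.0328% to 0.0988% of all did. In total RNA the median log2 change of the 77 ran from 0.02 to 0.10 without single libraries, beside 0.01 to 0.07 over all tested isoforms. With limma's eBayes without a trend 0 passed in either fraction, beside 0.0386% of all tested isoforms in polysomal and 0.219% in total RNA. With robust eBayes 2 of the 77 (2.60%) passed in each, beside 0.676% of all tested isoforms in polysomal and 1.73% in total RNA. Leaving out DDX3X polysomal replicate 1 from the rule itself gave 118 isoforms in place of 77, and leaving out any other library gave 86 to 98. With a library left out the rule can only keep or add isoforms, so all 77 stayed each time. Nothing is read from that.

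**Figure D4:**
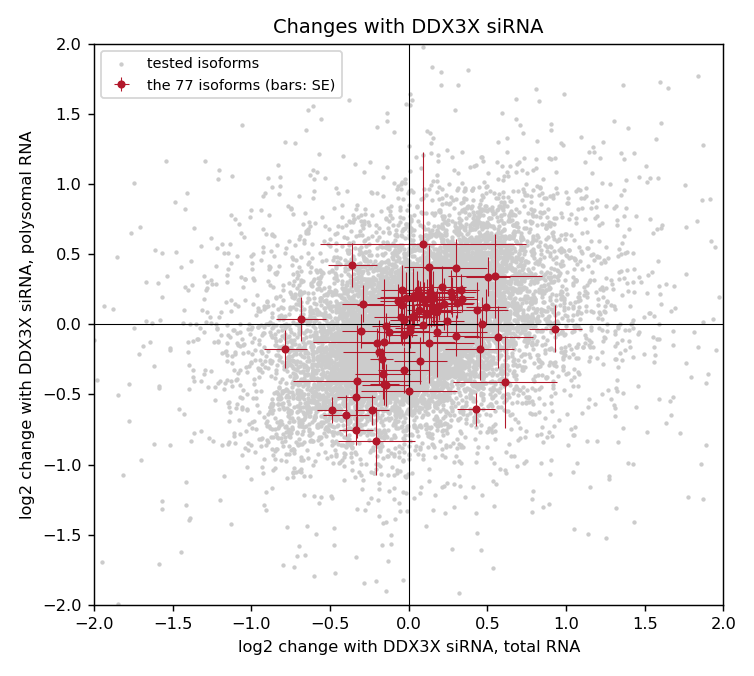
Log2 change with DDX3X siRNA in polysomal RNA against that in total RNA, on the log2(FPKM + 1) scale, for the 77 isoforms (red, bars are SE) and all tested isoforms (grey; 183 lie outside the plotted range of 2 either way). The 77 lie within -0.83 to 0.57 in polysomal RNA and -0.78 to 0.93 in total RNA.

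The changes in the fractions, which share no library, were above 0 in both for 35 of the 77 isoforms and below 0 in both for 20, together 71.4%, beside 65.5% of all tested isoforms. By setting polysomal values of one siRNA against total RNA values of the other, the rule leaves less room for opposite changes, so nothing is read from this share. An unadjusted p under 0.05 in both fractions was reached by 6 of the 77 (7.79%), beside 6.99% of all tested isoforms. Of the 6, 4 were lower in both (5.19% of the 77, beside 2.86% of all), 1 was higher in both (1.30%, beside 3.56%) and 1 was lower in polysomal and higher in total RNA. That last isoform was the one just inside the rule's limit, at rank 77 by margin. It had 96.5 and 107.8 FPKM in polysomal RNA with control and 65.3 and 68.1 FPKM with DDX3X siRNA, while total RNA went from 20.8 and 23.5 to 32.7 and 27.6 FPKM. Its ratio of means was 4.61 with control and 2.21 with DDX3X siRNA.

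The difference between the polysomal and the total RNA change asks whether DDX3X siRNA shifted polysome association. None of the 77 isoforms passed this test, where the ratio of 0.0322% of all tested isoforms rose and that of 0.0837% fell (limma adjusted p under 0.05). At an unadjusted p under 0.05 it was higher for 3 and lower for 4 of the 77 (3.90% and 5.19%), beside 2.15% and 5.23% of all tested isoforms. With robust eBayes and without a trend 0 passed as well, beside 0.116% and 0.0966% of all tested isoforms. The smallest adjusted p was that of the isoform at rank 77 by margin (log2 difference -1.03 ± 0.17 SE, limma adjusted p = 0.174, 95% interval -1.44 to -0.63). The median difference was -0.06, beside -0.05 over all tested isoforms, and both moved above 0 after median-of-ratios scaling (0.03 and 0.03). The interval lay within 1 on the log2 scale, again of FPKM + 1, for 58 of 77 isoforms. The rule limits how far the ratio can fall with either siRNA, since it requires a 2-fold excess with both, so an isoform that lost its polysomal excess with one siRNA could not be on the list.

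The opposite rule, with the lowest total RNA value at 5 FPKM or more and at least 2 times the highest polysomal value, was met by 55 isoforms. In these too 0 passed for DDX3X siRNA in polysomal RNA, in total RNA or in the difference (limma adjusted p under 0.05). Their median log2 changes were -0.19 in polysomal and 0.12 in total RNA and that of the difference was -0.26, beside 0.05, 0.07 and -0.06 for the 77. No test of the difference between the lists was run.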

How the data were processed

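The submitters' processing notes name the build hg38, TopHat2 and Cufflinks 2.2.1; which annotation and parameters they ran with is not given in the sources used here. Deposited by the authors was a table of isoform values for 8 libraries, read here as FPKM because Cufflinks gives that unit and the values are not whole; no header names it. Of 65535 rows, 21 held text or 1 number in all columns and were left out, and 5 cells with a decimal comma were converted. No pair of libraries shared over 0.00250% identical values above 0.

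Values were tested as log2(FPKM + 1) in isoforms that reached 1 FPKM in 2 or more libraries, which understates changes of low isoforms. Group means of the 4 groups were estimated in limma (version 3.58.1, R 4.3.3, eBayes with trend, 4 residual and 2.65 prior degrees of freedom), with Benjamini-Hochberg adjustment and a threshold of 0.05. The model was run on simulated data drawn with normal errors and the variances of the fit itself. That run does not show how the tests behave on the deposited values. Plots used matplotlib 3.10.9. Members and lists were chosen with earlier results of these data known. Identifiers were printed for the 2 largest margins, as the rule for isoforms without a gene name or a called change provides, and for 2 others. Alternatives covered the rule's limits, scaling, filter, pseudocount, variance model, replicate block and single libraries.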

Additional observations from a re-analysis of the deposited data

How the results depend on the processing

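The number of isoforms meeting the rule was 372 at 1.5 times, 13 at 3 times, 122 at 1 FPKM, 42 after median-of-ratios scaling and 44 after quantile normalization. A pair of further scalings were added after the data had been seen: equal library sums gave 12, and equal sums without isoforms above 10000 FPKM gave 26. Without single libraries, where it could not fall, the number was 86 to 118.

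Members called with DDX3X siRNA in polysomal RNA, 0 on the deposited values, numbered 1 with pseudocount 5, no filter, no isoforms listed at 0 or quantile normalization, 2 with median-of-ratios scaling, robust eBayes or equal sums without the abundant isoforms, and 3 at 5 FPKM or more. All of these were lower. Calls over all tested isoforms, 0.290% on the deposited values, were 0.408% to 0.869% where 1 member passed, 0.676% to 1.42% where 2 did and 3.26% where 3 did. In total RNA the number was 2 without isoforms listed at 0, with median-of-ratios scaling, robust eBayes or those equal sums, and 3 at 5 FPKM or more or after quantile normalization, with 1 of them higher in each setting. Over all tested isoforms 0.773% were called on the deposited values, 1.59% to 3.06% where 2 members passed and 3.35% to 3.71% where 3 did. Fits without single libraries are given above, for total RNA by their median changes only. Each leaves 1 library in a group, so members called in total RNA in those fits are not counted here. That does not mean that none passed. For the difference the number of members called was 0 in all settings that kept every library, beside 0% to 0.465% of all tested isoforms. With the replicate block 0 members passed in each of the 3 comparisons. Over all tested isoforms 0.0386% passed there in polysomal RNA, 0.135% in total RNA and 0.0773% for the difference. The replicate numbers are not shown to pair samples: deviations of same-numbered libraries correlated at -0.0849 in polysomal and -0.0523 in total RNA across isoforms.

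The total RNA change of uc003znw.1, whose total RNA values are near 0, reversed to -0.10 after quantile normalization and ran from -0.10 to 0.0058 in all; it was -0.0031 without control total replicate 1 and -0.00059 without DDX3X total replicate 1. The difference for uc003njr.3 reversed to 0.052 after quantile normalization and 8.73e-05 with those equal sums. The share meeting the rule with the other siRNA was 56.2% at 1.5 times, 36.7% at 3 times and 30.4% at 1 FPKM for isoforms chosen with control siRNA, and 63.3% at 1.5 times and 39.8% at 1 FPKM for those chosen with DDX3X siRNA. For each of these shifts the cause was not tested. Depth is unknown, and with 2 libraries a group small changes cannot be resolved.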
